A study of Mus musculus with 12 samples.

Results

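Liver-infiltrating CD4+ T cells from STAT3-deficient donors were compared across the transcriptome with those from WT donors in a mouse model of graft-versus-host disease. The comparison used 4 of the 12 RNA-Seq libraries of the series, 2 labelled Liver_STAT3ko_to_WT_CD4 and 2 labelled Liver_WT_to_WT_CD4, and covered 11959 genes with enough counts to test among 25078 listed. Recipients were lethally irradiated WT BALB/c mice given T cell-depleted bone marrow from WT C57BL/6 donors together with C57BL/6 T cells, and the donor CD4+ T cells in the liver were sorted on day 6 after transplantation, by a gate on H-2Kb (the donor MHC type), the TCRβ chain and CD4. WT T cells came from unmodified C57BL/6 mice, whereas STAT3-/- T cells came from STAT3 fl/fl mice with CD4-Cre, in which the Cre recombinase is driven by the CD4 promoter and deletes the floxed STAT3 segment in T cells. A further group, STAT3-/-PD-1-/-, also lacked the inhibitory receptor PD-1 and entered the fit to help estimate the spread, as 2 more libraries. Recipient age was not given in the labels. Each library was a pool of cells from 3 recipients, so that the spread between the 2 libraries of a group is a spread between pools and not between mice. Total counts were 22938050 and 23640160 in the WT libraries and 22273776 and 22692282 in the STAT3-/- libraries, and between 4.13% and 4.53% of a library lay in its 10 highest genes.

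STAT3 is a transcription factor that cytokine receptors activate through JAK kinases, among them the receptors for IL-6, IL-21, IL-23 and IL-10. Once phosphorylated, it binds DNA as a dimer and induces, in CD4+ T cells, the program of Th17 cells, which make IL-17, and genes of follicular helper T cells. Interferon receptors also signal through JAK kinases, and induce the interferon-stimulated genes. In graft-versus-host disease, donor CD4+ T cells recognize host antigens, expand and enter the liver, gut, lung and skin.

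Stat3 (chromosome 11) served as the check of the genotype labels. Its level was 362 and 466 counts per 1000000 mapped to genes (CPM, scaled by the trimmed mean of M values) in the WT libraries and 138 and 164 CPM in the STAT3-/- libraries. The groups did not overlap, and the level was 2.74-fold lower (log2 fold change -1.46, SE 0.22), with a Benjamini-Hochberg adjusted p of 0.0550 in the edgeR quasi-likelihood fit and of 0.00197 when the replicate number was a block in that fit. Reads were still counted on the gene in the STAT3-/- libraries, and the share of them that came from cells without a deletion was not measured. Cd4 itself stood at 1811 and 1875 CPM in WT and 1669 and 1888 CPM in STAT3-/- libraries. Cd8b1 stood at 12.95 and 10.01 CPM in WT and 11.5 and 9.43 CPM in STAT3-/- libraries, and Cd8a at 0.491, 0.802, 0.417 and 1.96 CPM in the same order. The sorted subset matched the labels in all 4 libraries. Of 185 genes listed within 2000 kb of Stat3, 73 were tested, and none was called in the fit without a block (0 of 73, with 1 higher and 8 lower at an unadjusted p under 0.05, where 5.28% and 5.25% of all tested genes were). With the block, under which 1.45% of all tested genes fell, 2 were called, both lower. These were Stat3 and Igfbp4, an insulin-like growth factor binding protein counted 25 and 22 times in WT and 4 and 3 times in STAT3-/- libraries.

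Markers of other cells that a liver sort could hold were at low levels, and some of them moved with genotype. The 2 CD8 marker genes summed to 13.4 and 10.8 CPM in WT and 11.97 and 11.4 CPM in STAT3-/- libraries. Neutrophil genes summed to 14.5 and 23.4 CPM in WT against 2.50 and 7.21 CPM in STAT3-/- libraries, nearly all of it from Mmp9, a matrix metalloprotease, while Camp and Elane were at 0. Dendritic cell genes summed to 83.7 and 81.8 CPM in WT against 48.4 and 55.7 CPM in STAT3-/- libraries, and the lower sum came from Itgax, the integrin chain CD11c that activated T cells also carry. Of the 5 dendritic cell genes tested Itgax was lower and the other 4 had higher fitted levels, H2-Ab1, an MHC class II chain, with 1.38 and 2.45 CPM in WT and 2.27 and 3.43 CPM in STAT3-/- libraries, and Cd209a and Siglech were at 0. NK cell genes summed to 372 and 245 CPM in WT against 181 and 140 CPM, and here the lower sum came from the granzyme gene Gzma. The other detected NK cell genes did not follow it. Klrb1c, the NK1.1 antigen, had 11.4 and 11.3 CPM in WT and 16.3 and 16.7 CPM in STAT3-/- libraries, the transcription factor gene Eomes 3.40 and 2.87 against 4.27 and 3.25 CPM, and Ncr1, the NKp46 receptor, was counted 0 and 0 against 9 and 6 times, while Klra8 and Klra4 were at 0. Macrophage genes summed to 118.6 and 123.5 CPM in WT and 136.0 and 117.9 CPM in STAT3-/- libraries, most of it from Ctss. Endothelial genes summed to 178 and 187 against 196 and 195 CPM. Nearly all of that came from Pecam1, with 176 and 182 CPM in WT and 195 and 193 CPM in STAT3-/- libraries. Hepatocyte genes, led by Apoe, summed to 5.32 and 12.7 against 3.90 and 8.67 CPM, and B cell genes, led by Cd79b with Ms4a1, Cr2 and Fcer2a at 0, to 2.95 and 2.62 against 2.74 and 1.91 CPM. Erythroid genes summed to 1.74 and 0.380 CPM in WT and 5.94 and 4.71 CPM in STAT3-/- libraries, all but a trace from Car2, and 8 of 11 were at 0. A list of γδ T cell genes, put together after its values were seen, summed to 21.8 and 27.4 CPM in WT against 4.13 and 6.09 CPM in STAT3-/- libraries. Of its 15 genes 5 were in the table, and the sum was nearly all from Cd163l1 and its neighbor 5830411N06Rik, while Sox13 was counted 0 and 0 times in WT and 1 and 0 times in STAT3-/- libraries, Blk 4 and 1 against 1 and 1 times, and Zbtb16 11 and 3 against 4 and 5 times. A gate on TCRβ and CD4 would remove γδ T cells, NK cells, myeloid cells and B cells, and how many of them remained after the sort, and their part in the differences that follow, was not tested. In pooled RNA, fewer cells of a type and less RNA per cell cannot be told apart.

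At an adjusted p under 0.05 the genotypes differed in 40 genes (0.334% of those tested), 18 higher (0.151%) and 22 lower (0.184%). In all 40 the 2 STAT3-/- libraries lay on one side of the 2 WT libraries, as they did for 38.1% of all tested genes, and the direction was the same in replicates 1 and in replicates 2, as for 72.5% of all. The median size of the change among the 40 genes was 2.20 on the log2 scale, where the median size of the difference, whatever its sign, over all genes was 0.187 between libraries numbered 1 and 0.220 between libraries numbered 2. Libraries with the same number deviated together, and with the number as a block 303 genes passed (2.53%), 129 higher (1.08%) and 174 lower (1.45%), the 40 among them. The number of calls changed with the libraries in the fit. Without WT replicate 1 there were 26 calls, 20 of them among the 40, and without WT replicate 2 there were 9, 8 of them among the 40. Without STAT3-/- replicate 1 or 2 there were 37 and 49 calls, with 31 and 30 of the 40, and without either STAT3-/-PD-1-/- library 1 gene was called, Cybb. A gene is said below to have risen or fallen where it passed in the first fit, or with the block where that is stated. Among the 40 genes, 5 had fewer than 10 counts in both libraries of the lower group and so could enter the test only through the other group.

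**Figure D1:**
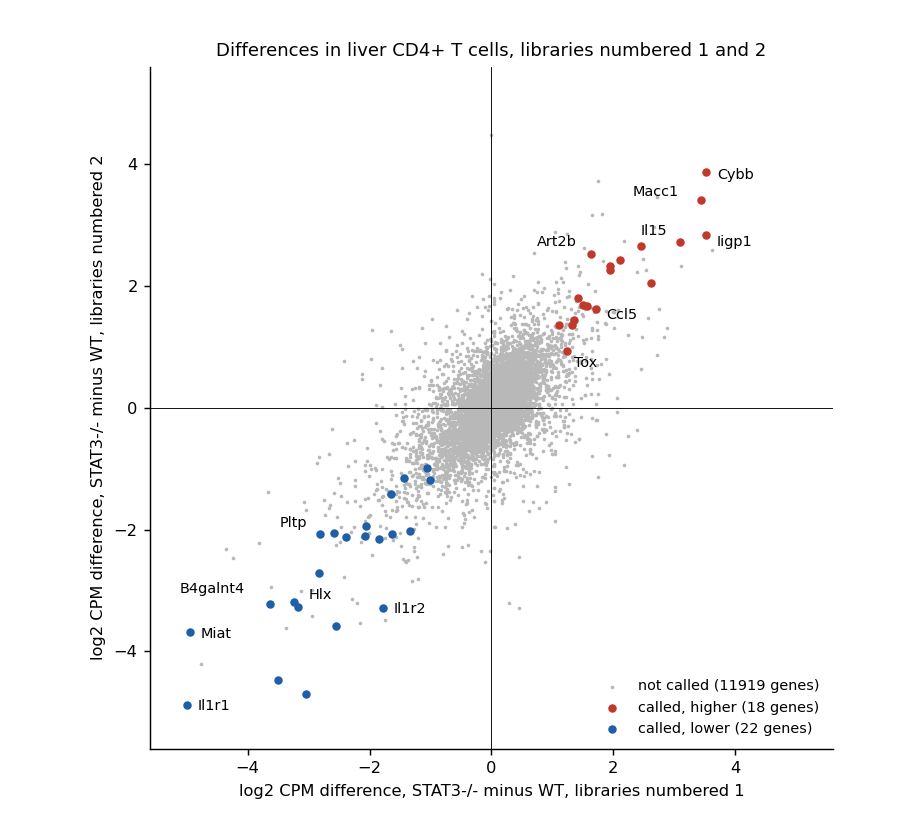
Log2 CPM differences (prior count 2), STAT3-/- minus WT, between the libraries numbered 1 (x axis) and between those numbered 2 (y axis), for each of the 11959 genes tested. The 18 genes that rose (red) lie in the upper right and the 22 that fell (blue) in the lower left, with Il1r1 and Cybb near the ends.

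The steepest fall among the 40 genes was that of Il1r1 (chr1:40225080-40316177, plus strand, mm10), which encodes the signalling receptor for IL-1, a cytokine that promotes Th17 responses. Il1r1 had 24.9 and 39.1 CPM in the WT libraries and 0.696 and 1.25 CPM in the STAT3-/- libraries. This 32.7-fold lower level (log2 fold change -5.03, SE 0.39, adjusted p = 0.00671) was matched in size within the libraries numbered 1 and 2, at -5.00 and -4.88. Il1r2 (chr1:40084714-40125230, plus strand), the decoy receptor for the same cytokine, had 15.9 and 22.9 CPM in WT and 4.59 and 2.27 CPM in STAT3-/- libraries (log2 fold change -2.50, SE 0.35, adjusted p = 0.0413). Both receptors of IL-1 thus fell, while the co-receptor gene Il1rap had 37.3 and 28.8 CPM in WT and 40.9 and 29.4 CPM in STAT3-/- libraries, and the IL-33 receptor gene Il1rl1 had 303 and 305 CPM against 266 and 262 CPM. On the deposited RPKM scale, which corrects for exon length, the mean level of Il1r1 went from 6.47 to 0.194 and that of Il1rap from 3.04 to 3.19. The STAT3-/-PD-1-/- libraries had 0.691 and 1.00 CPM of Il1r1 but 39.3 and 47.2 CPM of Il1r2, above all 4 libraries compared here. That group shares its WT controls with this comparison, so its values are given side by side only.

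Il17a, which encodes the cytokine that names Th17 cells, was counted 51 and 36 times in WT and 0 times in both STAT3-/- libraries. Against a floor of 3 counts per library the level was at least 13.9-fold lower, with adjusted p = 0.0572 and, with the replicate block, 0.0147. Il17re, which encodes a receptor chain for IL-17 family cytokines, was counted 13 and 20 times against 0 and 0, at least 5.23-fold lower (adjusted p = 0.0389 with the block, 0.111 without). Il23r, the receptor for IL-23, was counted 16 and 34 times against 2 and 1 times, a ratio of 15.9 (95% interval from counting error alone, 5.15 to 79.9), and did not pass in either fit (adjusted p = 0.214, and 0.0559 with the block).

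Of 19 genes on a Th17 list, 16 could be tested. In the fit without a block 2 fell, Il1r1 among them, and 0 rose, and with the block 7 fell and 0 rose, where 1.45% and 1.08% of all tested genes did. All 16 had lower fitted levels in STAT3-/- libraries, with a median log2 fold change of -1.21 against 0.01 over all tested genes, but 4 of the 16 had fewer than 10 counts in both libraries of the lower group. With at least 10 counts required in every library the median was -0.66. The remaining 3 members were too low to test. Il22 was counted 10 and 13 times in WT and 1 and 0 times in STAT3-/- libraries, Il17f 4 and 5 against 3 and 1 times, and Ccl20 3 and 0 against 0 and 0 times. Among members with more counts, Ahr, the aryl hydrocarbon receptor, had 180 and 144 CPM in WT and 87.1 and 82.7 CPM in STAT3-/- libraries and fell with the block (log2 fold change -0.93, adjusted p = 0.0135). Ltb4r1, a leukotriene B4 receptor, had 11.97 and 13.05 CPM against 2.46 and 5.29 CPM and also fell with the block (adjusted p = 0.0246). The groups overlapped for neither gene. Rora, the RORα gene, had 319 and 255 CPM in WT and 216 and 149 CPM in STAT3-/- libraries, and Ccr6, the receptor for CCL20, 1.03 and 1.65 against 0.186 and 0.534 CPM, and neither passed in either fit.

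**Figure D2:**
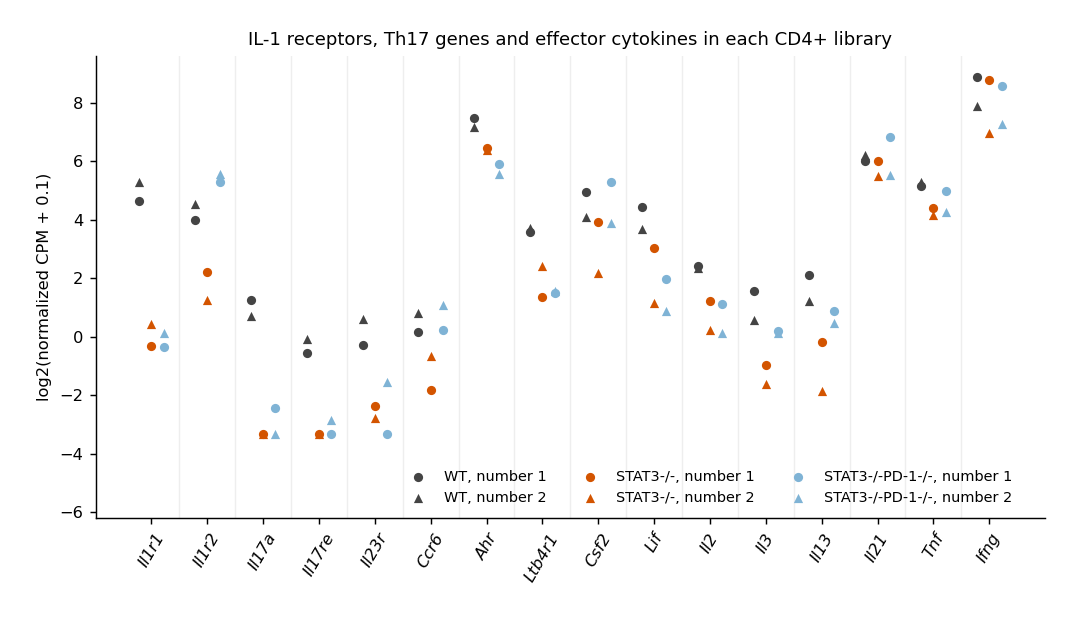
Level of each Th17 or cytokine gene in each CD4+ library (log2 of normalized CPM plus 0.1; 1 point per library, shaped by replicate number) in WT, STAT3-/- and STAT3-/-PD-1-/- T cells. Il1r1, Il17a and Ahr are lower in both STAT3-/- libraries than in both WT libraries, whereas Ifng and Il21 overlap between these groups.

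Of 28 effector cytokine genes 23 were tested, 0 passed without the block (1 higher and 7 lower at an unadjusted p under 0.05), and with the block 6 fell, Il17a among them, and 0 rose. Of all tested genes 5.28% were higher and 5.25% lower at that p, and 1.08% rose and 1.45% fell with the block. The median log2 fold change was -0.59, and 3 of the 23 had fewer than 10 counts in both libraries of the lower group. Leaving out STAT3-/- replicate 1 gave a median of -1.29 and leaving out STAT3-/- replicate 2 one of -0.43. Csf2, which encodes GM-CSF, had 30.6 and 16.8 CPM in WT and 14.98 and 4.45 CPM in STAT3-/- libraries (adjusted p = 0.0221 with the block, 0.557 without). Its level was higher in replicate 1 than in replicate 2 of each group, so that the groups did not overlap but came close. Lif, an IL-6 family cytokine gene, had 21.6 and 12.8 CPM in WT and 8.16 and 2.14 CPM in STAT3-/- libraries (adjusted p = 0.0181 with the block). Il13 had 4.20 and 2.24 CPM against 0.788 and 0.178 CPM, Il3 had 2.86 and 1.39 against 0.417 and 0.222 CPM, and Il2, the T cell growth factor, had 5.23 and 4.98 against 2.23 and 1.07 CPM. These 3 genes fell with the block, at adjusted p of 0.0192, 0.0246 and 0.0417. Other cytokines of CD4+ T cells did not pass. Ifng, the interferon-γ gene, had 474 and 237 CPM in WT and 444 and 126 CPM in STAT3-/- libraries, Il21 64.1 and 73.7 against 65.2 and 45.3 CPM, Il10 106 and 30.6 against 153 and 28.1 CPM, and Tnf 36.0 and 39.4 against 20.9 and 17.9 CPM (adjusted p = 0.0540 with the block). When 1 of the 6 libraries was left out, the log2 fold change of Ifng ran from -1.50 to 0.32 and that of Il10 from -1.29 to 1.57.

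Receptors of the common γ chain, IL-1 and IL-18 families were examined as a list. Of 21 tested, Il1r1 and Il1r2 were the 2 that fell in both fits, and 0 rose. Of all tested genes 0.184% fell and 0.151% rose without the block, and 1.45% fell and 1.08% rose with it. Il2ra, the IL-2 receptor α chain, had 265 and 291 CPM in WT and 164 and 191 CPM in STAT3-/- libraries (log2 fold change -0.65, adjusted p = 0.215, and 0.0677 with the block). Il21r, the IL-21 receptor that signals through STAT3, had 149 and 145 CPM in WT and 95.7 and 104 CPM in STAT3-/- libraries (adjusted p = 0.0906 with the block). The groups did not overlap for either gene, and neither passed. At an unadjusted p under 0.05, 5.28% of all tested genes were higher and 5.25% lower. Of 16 tested receptors and kinases that act upstream of STAT3, 0 passed in either fit, with 0 higher and 4 lower at that p. Among them Il6st, the gp130 chain shared by the IL-6 family, had 46.2 and 71.4 CPM in WT and 69.7 and 101 CPM in STAT3-/- libraries.

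Genes downstream of STAT3 signalling were examined as a list of feedback regulators and targets, of which 32 of 33 were tested. Of all tested genes 5.28% were higher and 5.25% lower at an unadjusted p under 0.05, and 1.08% rose and 1.45% fell with the block. Of the list 0 passed in the fit without a block (1 higher and 6 lower at that p), and with the block 2 fell. The median log2 fold change of -0.15 became -0.46 when STAT3-/- replicate 1 was left out and 0.02 when its replicate 2 was, so that 1 library set its sign. Bcl3, an IκB family regulator, had 30.3 and 67.0 CPM in WT and 12.8 and 17.8 CPM in STAT3-/- libraries (adjusted p = 0.0170 with the block). Id2, an inhibitor of basic helix-loop-helix factors, had 872 and 1112 CPM against 646 and 655 CPM (adjusted p = 0.0492 with the block). Socs3, the feedback inhibitor of cytokine receptors that STAT3 induces, had 133 and 104 CPM in WT and 99.0 and 29.3 CPM in STAT3-/- libraries, which did not pass (adjusted p = 0.0856 with the block). Cish stood at 189 and 155 against 121 and 126 CPM and Myc at 76.2 and 65.7 against 79.7 and 43.6 CPM, and neither passed.

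Cxcr5, the chemokine receptor that brings follicular helper T cells into B cell areas, fell. Its span overlaps Bcl9l on the other strand, a gene with a log2 fold change of 0.05. It had 9.07 and 12.2 CPM in WT and 2.88 and 2.85 CPM in STAT3-/- libraries (log2 fold change -1.90, SE 0.26, adjusted p = 0.0413). It was 1 of 13 tested follicular helper genes, and of all tested genes 1.45% fell and 1.08% rose with the block. With the block, 3 of the 13 fell and 0 rose, the others being Tox2, a high mobility group factor of these cells, with 22.02 and 34.3 against 9.65 and 11.1 CPM (adjusted p = 0.0133), and the costimulator Icos, with 1428 and 1104 against 860 and 529 CPM (adjusted p = 0.0147). Bcl6, which defines follicular helper T cells, had 10.4 and 18.7 CPM in WT and 7.10 and 8.85 CPM in STAT3-/- libraries and did not pass (adjusted p = 0.364, and 0.0954 with the block). The list median of -0.32 was -0.01 in replicates 1 and -0.70 in replicates 2, and ran from -0.60 to -0.15 when STAT3-/- replicate 1 or 2 was left out. Of the other lineage regulators, Foxp3 of regulatory T cells had 20.6 and 30.6 CPM against 16.1 and 25.1 CPM, and Tbx21, the T-bet gene of Th1 cells, had 93.7 and 147 CPM against 122 and 219 CPM, and the groups overlapped for both.

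Of 16 tested integrin genes 2 rose and 2 fell with the block, where 1.08% of all tested genes rose and 1.45% fell, and without it 1 fell. Itgax had 69.2 and 62.1 CPM in WT and 25.6 and 27.8 CPM in STAT3-/- libraries (log2 fold change -1.30, adjusted p = 0.0377) and 4.97 and 5.78 CPM in STAT3-/-PD-1-/- libraries. Itga4 and Itgb1, the α4 and β1 chains that together form VLA-4, were higher, at 1406 and 1286 CPM in WT against 2518 and 2340 CPM for Itga4, and 2153 and 1641 against 3561 and 2683 CPM for Itgb1. Both rose with the block (adjusted p = 0.00911 and 0.0389) and not without it (0.0583 and 0.215). Itga3 had 8.40 and 14.6 CPM against 3.62 and 5.29 CPM and fell with the block (adjusted p = 0.0399). Among 25 chemokine and homing receptors, Cxcr5 fell without the block, and with the block Ccr1, the CCL5 and CCL3 receptor, also fell, from 7.68 and 6.08 CPM to 1.90 and 1.07 CPM (adjusted p = 0.00885). The third of the list to fall with the block was Gcnt1, which builds the branched glycans of selectin ligands, with 59.5 and 64.7 CPM in WT and 28.2 and 33.0 CPM in STAT3-/- libraries (adjusted p = 0.0258), and 0 rose. Adam8, a membrane metalloprotease on neither list, had 325 and 339 CPM against 155 and 170 CPM and fell in both fits (log2 fold change -1.03, adjusted p = 0.0413).

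The genes that fell included B4galnt4, Chst11 and Csgalnact1, whose products are enzymes of sugar chains. They were put side by side after their values were seen, and how many other such enzymes moved was not counted. B4galnt4, a β1,4-N-acetylgalactosaminyltransferase, had 99.1 and 115 CPM in WT and 7.88 and 12.2 CPM in STAT3-/- libraries (log2 fold change -3.41, SE 0.24, adjusted p = 0.00671). Chst11, which sulfates chondroitin, had 115 and 128 CPM in WT and 27.1 and 29.6 CPM in STAT3-/- libraries (log2 fold change -2.10, SE 0.15, adjusted p = 0.00671). Csgalnact1, which starts chondroitin sulfate chains, had 3.13 and 3.63 CPM against 0.464 and 0.222 CPM (adjusted p = 0.0394). The STAT3-/-PD-1-/- libraries had 7.74 and 6.75 CPM of B4galnt4 and 23.6 and 22.9 CPM of Chst11. For each of the 3 genes the WT libraries lay above all STAT3-deficient CD4+ libraries of either kind.

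The other genes that fell were of mixed function. Miat, a long noncoding RNA, had 26.8 and 44.1 CPM in WT and 0.788 and 3.34 CPM in STAT3-/- libraries (log2 fold change -4.09, SE 0.57, adjusted p = 0.0413). Over the alternative fits its log2 fold change ran from -5.48 to -3.41. Hlx, a homeobox factor, was counted 25 and 38 times in WT and 1 and 2 times in STAT3-/- libraries (ratio 20.1, 6.56 to 99.9 from counting error), and the gene model Gm15987 74 and 106 against 7 and 2 times (ratio 19.1, 9.85 to 42.5). These 3 were among the steepest falls beside Il1r1. Arnt2, a partner of PAS-domain factors of the same family as AHR, went from 6.43 and 7.22 CPM to 0.603 and 0.712 CPM, and Cd163l1, a scavenger receptor found on γδ T cells, from 16.04 and 20.1 CPM to 2.18 and 2.98 CPM. Acpp, an acid phosphatase, went from 44.5 and 45.5 CPM to 8.44 and 10.3 CPM, and Fam20a, a pseudokinase of the secretory pathway, from 34.9 and 41.1 CPM to 8.35 and 10.6 CPM. Pltp, the phospholipid transfer protein, whose span overlaps Ctsa on the other strand, Stom, the membrane protein stomatin, Marcks, a protein kinase C substrate, and Crmp1 fell by 2.46, 2.00, 1.71 and 1.10 on the log2 scale. In none of these 4 did the groups overlap. With the block, genes of other receptors joined them, including Acvr2a, an activin receptor (7.33 and 12.8 against 1.76 and 3.02 CPM, adjusted p = 0.00668), and the growth factor gene Tgfb3 (18.05 and 17.9 against 6.96 and 7.47 CPM, adjusted p = 0.0251).

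Cybb (chrX:9435254-9469324, minus strand), which encodes gp91phox, the electron-carrying subunit of the phagocyte NADPH oxidase that makes superoxide, rose. Its level was 6.21 and 4.90 CPM in the WT libraries and 72.5 and 72.9 CPM in the STAT3-/- libraries, a 13.1-fold rise (log2 fold change 3.71, SE 0.29, adjusted p = 0.00671). Cybb was the one gene of the 40 that passed whichever of the 6 libraries was left out. Of 14 NADPH oxidase subunit genes 8 were tested, and with the block 2 of them rose, where 1.08% of all tested genes did. Ncf1, the organizing subunit p47phox, had 10.8 and 8.70 CPM in WT and 28.4 and 29.5 CPM in STAT3-/- libraries (log2 fold change 1.57, adjusted p = 0.0728, and 0.0111 with the block). Cyba, the p22phox partner of gp91phox, had 187 and 182 CPM against 170 and 158 CPM, and the GTPase gene Rac2 had 2182 and 2206 CPM against 1933 and 2153 CPM. On the RPKM scale the mean level of Cybb went from 1.19 to 15.4 and that of Cyba from 247 to 218. Macrophages also express Cybb. Their summed marker genes, given above, were mostly Ctss (102.8 and 93.4 CPM in WT and 121.3 and 95.7 CPM in STAT3-/- libraries), and the macrophage receptor gene Csf1r was counted 2 and 31 times in WT and 2 and 18 times in STAT3-/- libraries. The part of macrophages in the rise of Cybb was not tested.

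Of 16 tested genes from a list of 26, mostly NK lectin receptors, 1 rose in the first fit (0.151% of all tested genes did) and 3 more with the block (1.08%), while 1 fell with the block (1.45%). The tested genes included some that are not lectins, namely Cd226 and the adaptor genes Tyrobp, Hcst and Fcer1g. The 1 that rose in both fits was Klrk1, which encodes the activating receptor NKG2D and had 40.1 and 22.9 CPM in WT and 155 and 115 CPM in STAT3-/- libraries (log2 fold change 2.10, SE 0.29, adjusted p = 0.0413). Fitted levels were higher in 13 of the 16, as in 51.7% of all tested genes, and the median log2 fold change was 0.58. Leaving out STAT3-/- replicate 1 gave a median of 0.15, and leaving out WT replicate 1 gave 0.85. Klrd1, the CD94 chain, had 104 and 61.7 CPM in WT and 205 and 125 CPM in STAT3-/- libraries, and Klrg1, an inhibitory receptor of differentiated effector cells, had 19.9 and 11.7 against 48.3 and 27.1 CPM. Both rose with the block alone (adjusted p = 0.00765 and 0.0186, against 0.371 and 0.231 without it). Klrb1f, in contrast, had 20.7 and 18.5 against 9.55 and 8.23 CPM and fell with the block (adjusted p = 0.0328). Cd226, an adhesion receptor of NK and T cells, had 163 and 114 CPM in WT and 274 and 166 CPM in STAT3-/- libraries and rose with the block alone (adjusted p = 0.0358, and 0.485 without it). The chemokine gene Ccl5 (RANTES) rose in both fits and had 46.9 and 53.4 CPM in WT and 154 and 165 CPM in STAT3-/- libraries (log2 fold change 1.67, SE 0.15, adjusted p = 0.0125). Heatr9, a neighbor of Ccl5 on chromosome 11, had 1.30 and 1.48 CPM against 7.51 and 9.74 CPM (log2 fold change 2.63, adjusted p = 0.0250). Of the receptors and Ccl5 and Heatr9, none had overlapping groups, as for 38.1% of all tested genes. The NK cell genes Ncr1 and Klrb1c, given above, were also higher in both STAT3-/- libraries. The gate on TCRβ would remove NK cells, and the part of any that remained was not tested. Il15, a cytokine of NK cells and memory CD8+ T cells, was counted 3 and 5 times in WT and 39 and 42 times in STAT3-/- libraries, a ratio of 10.6 (5.13 to 25.4 from counting error).

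Of 19 tested cytotoxic genes 0 passed without the block, with 4 higher and 4 lower at an unadjusted p under 0.05, where 5.28% and 5.25% of all tested genes were. With the block 4 rose and 3 fell, against 1.08% and 1.45% of all. Gzmb, the main granzyme of cytotoxic T cells, had 1326 and 895 CPM in WT and 513 and 306 CPM in STAT3-/- libraries (log2 fold change -1.44, adjusted p = 0.00490 with the block). Gzma had 357 and 230 CPM against 160 and 120 CPM (adjusted p = 0.0199 with the block), and Crtam, a receptor of cytotoxic CD4+ T cells, had 6.34 and 8.32 against 2.60 and 3.56 CPM (0.0305 with the block). The granzyme gene Gzmk went the other way, with 22.9 and 20.1 CPM in WT and 52.3 and 37.0 CPM in STAT3-/- libraries (0.0170 with the block). The other 3 that rose were serpins that guard cells against granzymes or cathepsins, Serpinb9b (28.99 and 19.97 against 91.6 and 61.96 CPM), Serpinb9 (569 and 306 against 1005 and 496 CPM) and Serpinb6b (705 and 399 against 1206 and 761 CPM). The groups overlapped for Serpinb9, as replicate 2 of STAT3-/- lay below replicate 1 of WT, and did not for Serpinb9b. Prf1, the perforin gene, had 71.7 and 81.2 CPM against 55.1 and 62.0 CPM and did not pass.

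Most interferon-stimulated genes had higher fitted levels in STAT3-/- libraries. Of 60 on the list, 58 were tested and 56 were on the higher side, as were 51.7% of all tested genes. Without the block 2 rose and 0 fell, where 0.151% and 0.184% of all tested genes did. With the block 16 rose and 0 fell, where 1.08% and 1.45% of all tested genes did. The list did not hold the Ifitm genes described next, which fell, so that its counts do not cover every interferon-induced gene. The median log2 fold change was 0.62, and the within-replicate medians were 0.57 and 0.59, against 0.01 over all tested genes. That median lay between 0.59 and 0.65 under the other filters, scalings and fits. Iigp1, an immunity-related GTPase, had 4.15 and 8.74 CPM in WT and 48.6 and 63.1 CPM in STAT3-/- libraries (log2 fold change 3.11, SE 0.41, adjusted p = 0.0413), and Rtp4 had 17.1 and 15.3 against 36.8 and 39.1 CPM (log2 fold change 1.23, adjusted p = 0.0413). A further 2 genes of interferon-inducible families outside the list also rose, Ifi213 from 27.6 and 32.7 to 74.4 and 115 CPM (log2 fold change 1.65) and Ifit1bl1 from 9.07 and 9.75 to 27.1 and 31.2 CPM (log2 fold change 1.63). Among the genes that rose with the block were Ifit1 (6.75 and 5.02 against 18.3 and 11.5 CPM), Oas3, which makes the activator of RNase L (77.4 and 58.6 against 129 and 160 CPM), the guanylate-binding protein gene Gbp6 (30.8 and 46.7 against 81.6 and 79.1 CPM), and Xaf1 (118 and 119 against 205 and 198 CPM). Isg15 had 7.46 and 4.90 against 10.25 and 6.45 CPM and did not pass. Of these 9 genes all but Isg15 were higher in both STAT3-/- libraries than in both WT libraries, as were 19.2% of all tested genes. All but Isg15 had also passed in at least 1 of the fits, which favors groups that do not overlap. In the STAT3-/-PD-1-/- libraries Xaf1 stood at 75.2 and 77.6 CPM, Ifi213 at 18.1 and 16.6 CPM and Iigp1 at 32.5 and 17.96 CPM.

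The interferon-induced transmembrane protein genes, which block virus entry and lie in 1 cluster on chromosome 7, were outside that list and went the other way. Ifitm1 had 351 and 221 CPM in WT and 58.8 and 52.6 CPM in STAT3-/- libraries (log2 fold change -2.36, SE 0.27, adjusted p = 0.0266). Ifitm2 had 260 and 212 CPM against 83.3 and 79.0 CPM (log2 fold change -1.54, SE 0.16, adjusted p = 0.0237). Ifitm3 had 206 and 192 CPM against 100 and 108 CPM (log2 fold change -0.93, adjusted p = 0.0548, and 0.0102 with the block). The groups overlapped for none of the 3, and the family shares stretches of near-identical sequence, so that some reads may have been assigned to the wrong member.

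**Figure D3:**
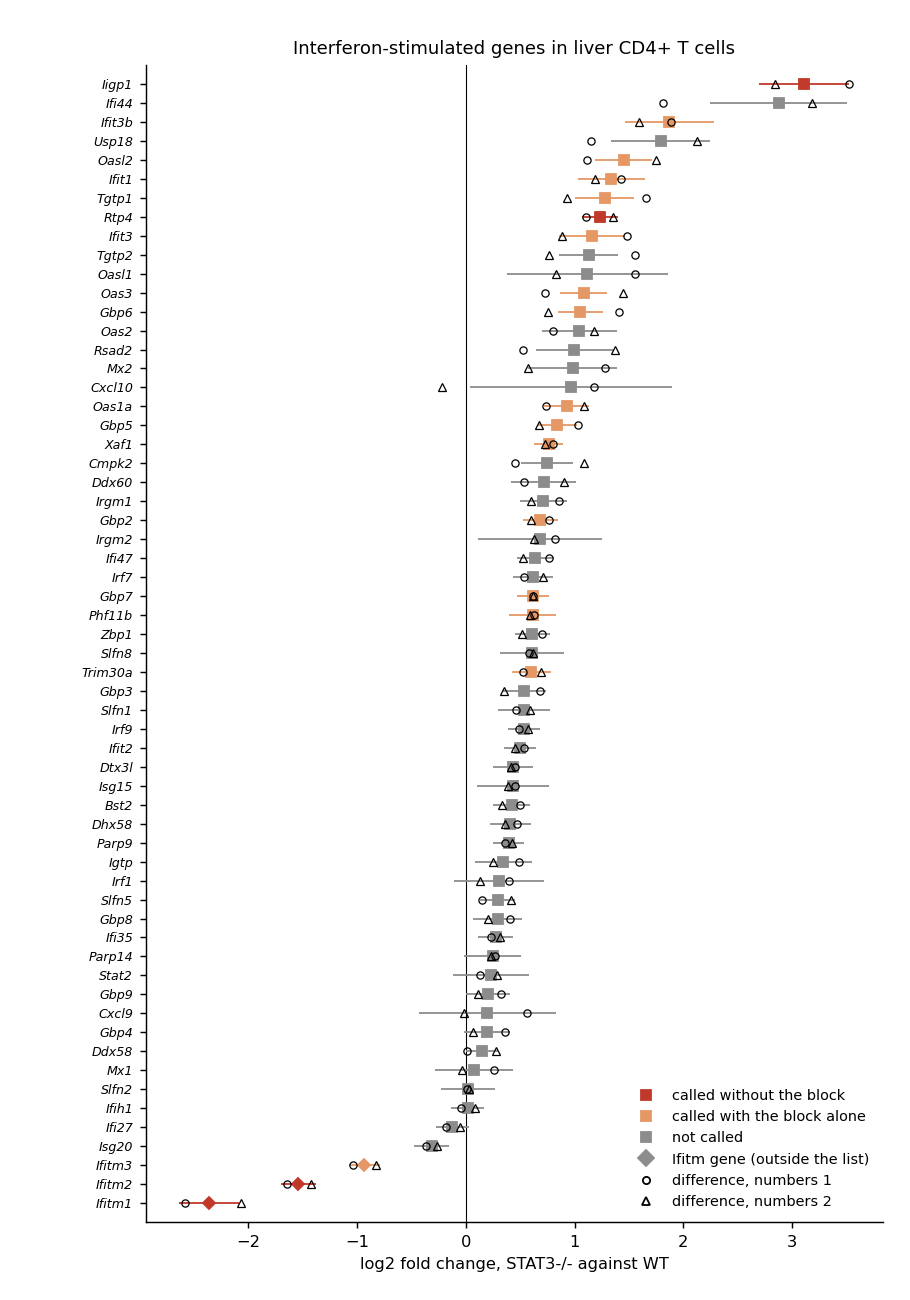
Log2 fold change of 57 of the 58 tested interferon-stimulated genes and of the Ifitm genes between the genotypes (CD4+ libraries, STAT3-/- against WT), with its standard error as a bar and the log2 CPM differences between libraries numbered 1 (circles) and 2 (triangles). Colors mark genes called without the block, with the block alone, or not called. Most interferon-stimulated genes lie to the right of 0 and Ifitm1, Ifitm2 and Ifitm3 to the left.

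Upstream sequence was read for genes of both kinds, from the 250 bases before the RefSeq start site (GRCm38.p6). The letters GAAANNGAAA, the core of the element bound by interferon regulatory factors, were searched on both strands. They occurred in 978 of 32851 windows of the table (2.98%). Counted by gene, among genes that had a window, they occurred in 313 of 9539 tested genes (3.28%). By the same count they occurred in 24 of 42 interferon-stimulated genes and in 5 of 29 called genes. Windows were at hand for 72.5% of the 40 called genes and for 72.4% of the tested interferon-stimulated genes, which is too few for the shares to be compared. The following 50-base stretches, and a longer one for Cybb with 3 matches, are shown for the 5 called genes and for Oas3. Matches are in capitals, as GAAANNGAAA or, when on the other strand, as TTTCNNTTTC.

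Cybb (chrX:9469325-9469512, minus strand): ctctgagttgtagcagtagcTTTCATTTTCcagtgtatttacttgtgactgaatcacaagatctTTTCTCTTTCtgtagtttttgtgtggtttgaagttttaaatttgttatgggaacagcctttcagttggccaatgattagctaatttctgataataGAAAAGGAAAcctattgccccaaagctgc

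Ifi213 (chr1:173599316-173599365, minus strand): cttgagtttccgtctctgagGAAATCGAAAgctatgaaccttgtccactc

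Ifit1bl1 (chr19:34602043-34602092, minus strand): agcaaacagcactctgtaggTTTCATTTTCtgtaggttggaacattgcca

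Wls (chr3:159839428-159839477, plus strand): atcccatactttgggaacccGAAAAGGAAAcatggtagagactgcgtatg

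Ifitm2 (chr7:140955978-140956027, minus strand): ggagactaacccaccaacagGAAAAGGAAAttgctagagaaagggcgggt

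Oas3 (chr5:120777705-120777754, minus strand): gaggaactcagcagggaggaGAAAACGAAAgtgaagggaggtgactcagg

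Cybb, Ifi213, Ifit1bl1 and Wls rose in STAT3-/- libraries and Ifitm2 fell, so that the letters stood before genes of either direction. The 3 matches of Cybb lay between 29 and 168 bases before its start site, and that of Ifitm2 lay 46 bases before. The letters TTCNNNGAA, the core of a STAT dimer site, were found before 1 of the 29 called genes with a window, Il1r2. They were also found before 11 of the 42 interferon-stimulated genes and 679 of the 9539 tested genes with a window (7.12%). Of all windows 7.02% held them, and these shares too were not compared. A match says only that the letters are there, and no binding was measured in these libraries.

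The rest of the genes that rose did not fall into a single group. Tox, a high mobility group factor of chronically stimulated T cells, had 86.1 and 94.4 CPM in WT and 204 and 180 CPM in STAT3-/- libraries (log2 fold change 1.09, SE 0.15, adjusted p = 0.0413), while Pdcd1, the PD-1 gene, had 242 and 235 against 257 and 323 CPM and did not pass. Art2b, an ADP-ribosyltransferase on the T cell surface, had 17.6 and 12.6 against 54.6 and 73.0 CPM, and its near-identical neighbor Art2a had 1.56 and 1.94 against 10.1 and 8.32 CPM, with reads that may have been split between them. Both copies were higher in each STAT3-/- library than in each WT library. Macc1, a transcriptional regulator of the MET receptor, was counted 3 and 2 times in WT and 50 and 39 times in STAT3-/- libraries (ratio 18.6, 7.69 to 58.8 from counting error). Wls, which carries Wnt proteins to the surface, had 8.93 and 8.74 against 25.4 and 28.3 CPM, Tanc2, a scaffold protein, 2.99 and 2.87 against 13.3 and 15.8 CPM, Gpm6b, a membrane glycoprotein, 2.50 and 2.41 against 9.88 and 11.9 CPM, and C1qtnf6 10.7 and 12.6 against 27.0 and 32.4 CPM. Of the transcription factors that passed with the block alone, Bach2, which restrains effector differentiation, rose from 11.6 and 14.4 to 24.4 and 28.3 CPM (adjusted p = 0.0202) and Zbtb32 from 26.2 and 21.6 to 47.1 and 39.9 CPM (0.0199), whereas the chromatin organizer Satb1 fell from 465 and 582 to 284 and 351 CPM (0.0256) and Tcf7, the TCF-1 gene of memory-like T cells, from 131 and 188 to 88.0 and 96.4 CPM (0.0311).

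Cell cycle genes had mostly higher and ribosome biogenesis genes mostly lower fitted levels, with few members past the test. Over all tested genes 51.7% had higher and 48.3% lower fitted levels, 5.28% were higher and 5.25% lower at an unadjusted p under 0.05, and 1.08% rose and 1.45% fell with the block. Of 42 mitosis and spindle genes 41 had higher fitted levels, with a median log2 fold change of 0.33 (0.20 without WT replicate 2 and 0.51 without WT replicate 1). Without the block 0 passed (9 higher and 0 lower at an unadjusted p under 0.05), and with it 2 rose, the spindle genes Hmmr (73.5 and 54.3 against 121 and 84.1 CPM, adjusted p = 0.0266) and Ttk (31.0 and 20.9 against 46.6 and 37.3 CPM, 0.0444). Mki67, the proliferation marker Ki-67, had 1647 and 1445 CPM in WT and 1884 and 1920 CPM in STAT3-/- libraries, and did not pass. Of 40 DNA replication genes 1 rose with the block, the polymerase gene Pola1 (88.9 and 50.7 against 136 and 83.4 CPM, adjusted p = 0.0424), with a median of 0.19 over the 40 that was 0.00 when WT replicate 2 was left out, 0.06 without replicate 1 of STAT3-/- and 0.31 without replicate 1 of WT. Of 39 ribosome biogenesis and RNA polymerase I genes 35 had lower fitted levels (median -0.25, and -0.40 and -0.14 without STAT3-/- replicate 1 and 2), 0 passed without the block (0 higher and 7 lower at an unadjusted p under 0.05) and 2 fell with it, Tsr1 (111 and 105 against 68.7 and 59.0 CPM, adjusted p = 0.0265) and Rrp1b (51.6 and 85.4 against 32.5 and 45.2 CPM, 0.0334). Structural genes of the cytosolic ribosome (76 tested, median 0.04) and the mitochondrial ribosome (76, median -0.03) held 0 genes that passed in either fit. Both medians changed sign with 1 library, from -0.15 to 0.12 without STAT3-/- replicate 1 or 2 for the cytosolic ribosome, and from -0.16 without STAT3-/- replicate 1 to 0.04 without WT replicate 1 for the mitochondrial ribosome.

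Metabolic lists held few genes that passed. In glycolysis and glucose transport (28 tested, median -0.15), the tricarboxylic acid cycle (25, -0.01), fatty acid uptake and oxidation (22, -0.02), serine, one-carbon and nucleotide synthesis (31, 0.01), and the respiratory chain (73, 0.00), 0 genes passed with or without the block. At an unadjusted p under 0.05 these lists held 4, 0, 1, 1 and 0 lower genes and 0 higher ones, where 5.25% of all tested genes were lower and 5.28% higher. Leaving out 1 library changed the sign of 3 of the 5 medians. The respiratory chain median ran from -0.17 to 0.13 without STAT3-/- replicate 1 or 2, that of the tricarboxylic acid cycle from -0.10 to 0.09 when STAT3-/- or WT replicate 1 was left out, that of serine and one-carbon genes was -0.10 without WT replicate 2, and that of fatty acid genes was -0.12 without STAT3-/- replicate 1. Of all tested genes 1.45% fell with the block and 0.184% without it. Glutathione, thioredoxin and NRF2 target genes (40, -0.11) and cholesterol synthesis genes (30, -0.17) each held 1 that fell with the block and 0 without it. At an unadjusted p under 0.05 they held 7 and 2 lower genes and 0 higher ones, and the glutathione median ran from -0.25 to -0.01 when WT replicate 2 or 1 was left out. Anergy genes (15 tested, median 0.08), T cell receptor signalling genes (29, -0.07), and BCL2 family and death receptor genes (29, -0.07) held 0 in either fit, with 0, 5 and 2 lower and 0, 0 and 3 higher at that unadjusted p. The anergy median was -0.04 without STAT3-/- replicate 2, and that of the BCL2 list was 0.08 without WT replicate 1.

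**Figure D4:**
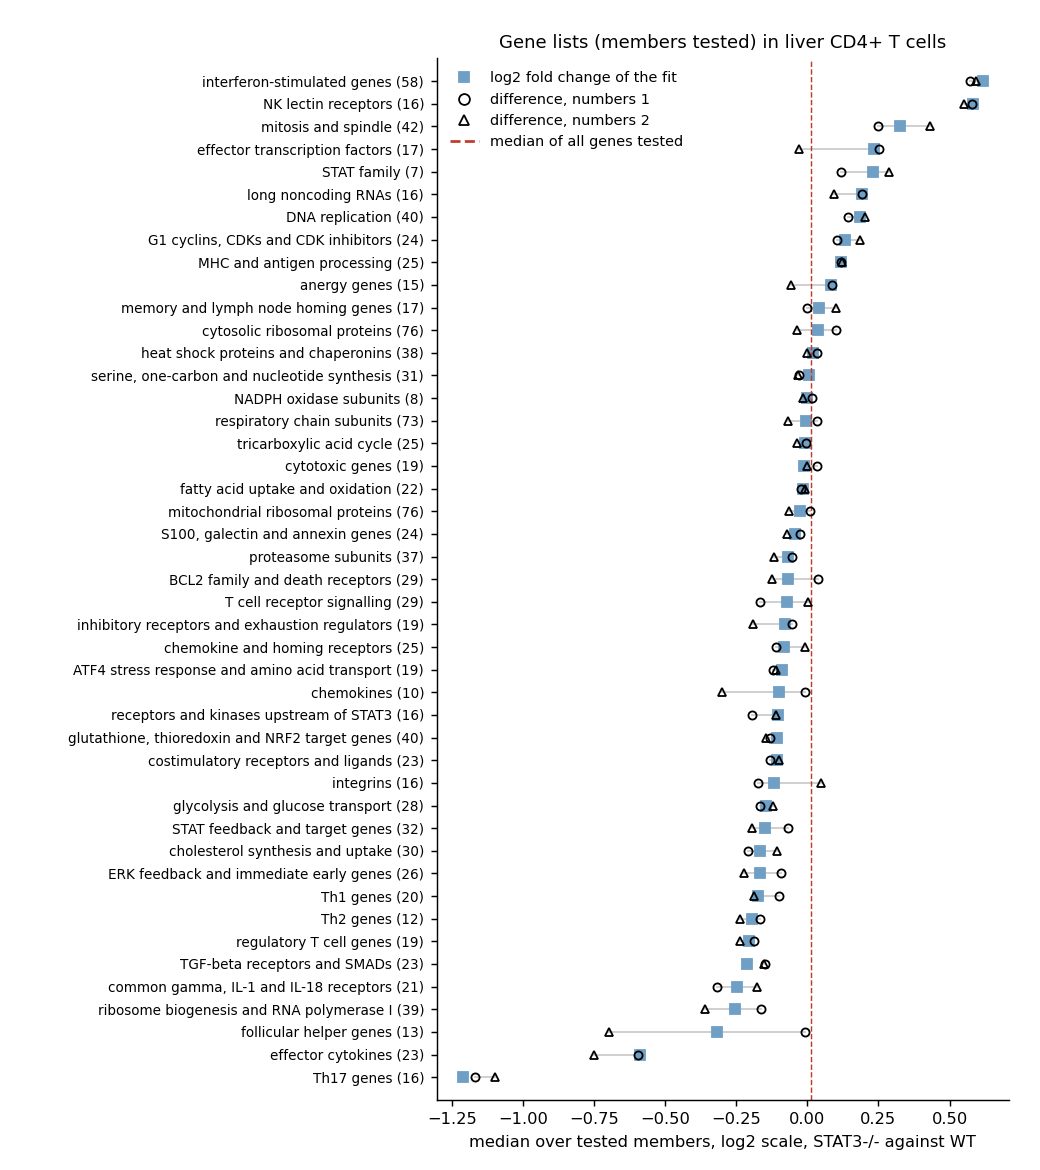
Median over the tested members of each gene list (number in parentheses) of the log2 fold change, STAT3-/- against WT CD4+ T cells (squares), and of the log2 CPM differences within libraries numbered 1 (circles) and 2 (triangles). Interferon-stimulated genes (0.62) and NK lectin receptors (0.58) lie at the upper end and Th17 genes (-1.21) at the lower end, although leaving out 1 library took the NK lectin median down to 0.15 and a stricter count filter took the Th17 median to -0.66, with the median of all genes as a dashed line.

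Whether the effect of STAT3 deficiency differed between CD4+ and CD8+ T cells of the same livers was tested by an interaction term over all 12 libraries. Of 12334 genes, 0 differed at an adjusted p under 0.05 in edgeR (0.00%), 228 had an unadjusted p under 0.05 (1.85%, with 0.819% higher and 1.03% lower in CD4+ T cells), and DESeq2 called 5, namely Ccl5, Faxc, Heatr9, Klrk1 and Pls1. Of the 40 genes called in CD4+ T cells 37 were tested in CD8+ T cells, and all 37 had a fold change of the same sign there, as did 75.2% of all genes. In 32 of the 37 (86.5%) the CD8+ change had an unadjusted p under 0.05 and the same sign, against 10.6% of all genes (6.01% of genes were higher and 4.95% lower in CD8+ T cells at that p), and 3 passed in CD8+ T cells after adjustment, where 7 of 12002 genes did (0.0583%, with 0.0167% higher and 0.0417% lower). Among the 40 genes, 24 had an unadjusted edgeR interaction p under 0.05, against 215 of the 11959 genes. The 40 were chosen by their CD4+ change, which the interaction also uses. The CD4+ and CD8+ libraries of a group came from the same animals, so these shares are not from separate mice. Il1r1 had log2 fold changes of -5.03 in CD4+ and -5.66 in CD8+ T cells, Cybb 3.71 and 2.53, Chst11 -2.10 and -1.86, and Stat3 -1.46 and -1.46. In CD8+ T cells Il1r1 had 3.55 and 7.56 CPM in WT and 0.0859 and 0.124 CPM in STAT3-/- libraries. These STAT3-/- levels lay near or under the floor of 3 counts per library, so the size of the CD8+ fall is not precise. Some receptors and a chemokine had smaller values in CD8+ T cells. Ccl5 had log2 fold changes of 1.67 and 0.54 in the CD4+ and CD8+ subsets (edgeR interaction, adjusted p = 0.505), Klrk1 of 2.10 and 0.33, and Cxcr5 of -1.90 and -0.02, and none of the 3 differences passed in edgeR. Their levels also differed between the subsets. In CD8+ T cells Ccl5 had 395 and 359 CPM in WT and 518 and 580 CPM in STAT3-/- libraries, and Klrk1 271 and 306 against 321 and 405 CPM. Cxcr5 was low there, at 1.29 and 0.845 against 0.988 and 1.11 CPM, so its CD8+ value rests on few counts. The NK lectin receptor list, with its adaptor genes and Cd226, had medians of 0.58 (CD4+) and -0.16 (CD8+), and the median of the interferon-stimulated genes was 0.62 and 0.38.

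**Figure D5:**
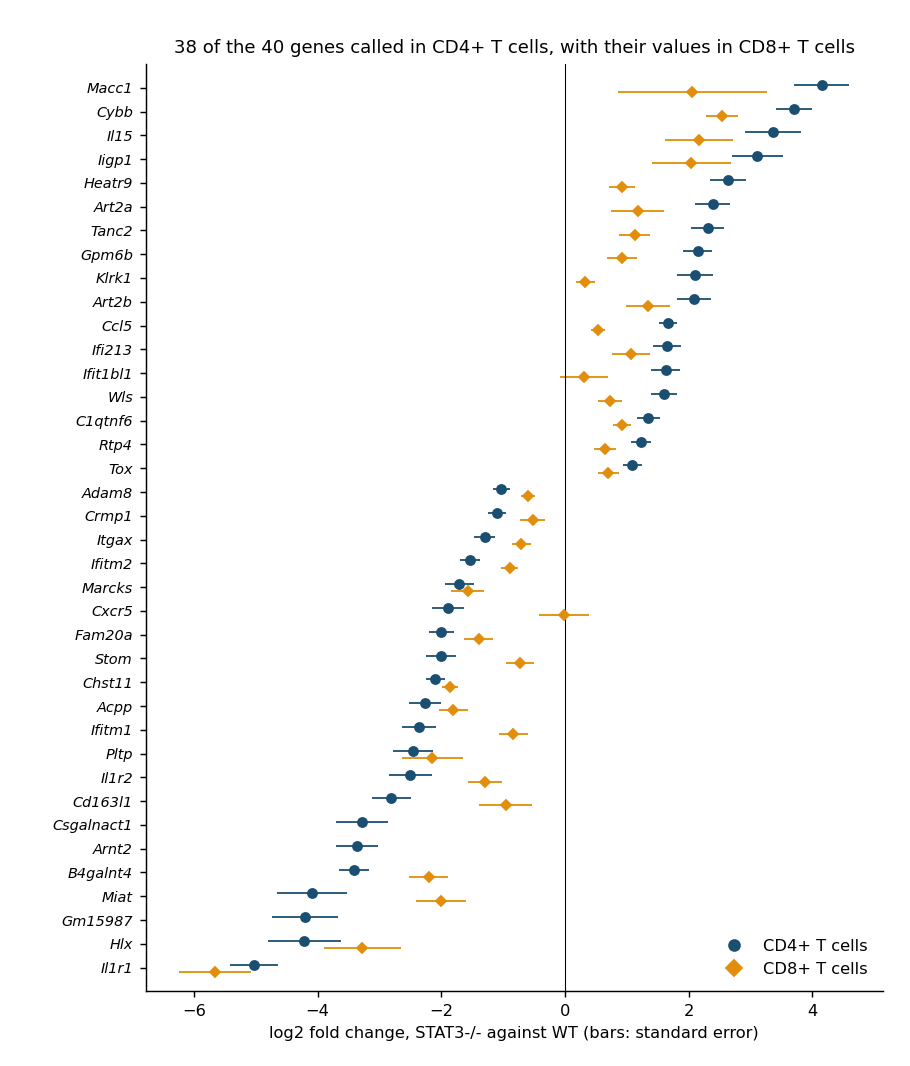
Log2 fold change, STAT3-/- against WT, with its standard error, of 38 of the 40 called genes (rows) in CD4+ (circles) and CD8+ (diamonds, 35 of the 38) T cells of the liver. The 2 points of a gene lie on the same side of 0, and those of Cxcr5, Klrk1 and Ccl5 lie nearer to 0 in CD8+ T cells.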

How the data were processed

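Donor CD4+ and CD8+ T cells sorted from the liver were profiled by RNA-Seq (12 libraries, 6 of them CD4+). The authors aligned the reads with STAR 2.7 to mm10 and counted them per RefSeq gene with HTSeq-count 0.11, and deposited raw counts with exon lengths and RPKM values per gene. Whether counting used strand was not given in the sources used here.

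Counts were tested with edgeR 4.0.16 (R 4.3.3), by quasi-likelihood with TMM scaling, on the 6 CD4+ libraries (3 groups), for genes passing filterByExpr (minimum count 10, minimum total 15), with Benjamini-Hochberg adjustment over all genes and a threshold of 0.05. Levels are CPM, and log2 CPM has a prior count of 2. RPKM, as deposited, served for levels corrected for length and, as log2(RPKM + 1) in limma 3.58.1, as an alternative.

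Libraries with the same replicate number deviated together from their group means (r = 0.659 for WT and STAT3-/-, 0.320 for WT and STAT3-/-PD-1-/-, and 0.206 for STAT3-/- and STAT3-/-PD-1-/-), so the blocked value is given where it changes a call. Replicates differed beyond counting noise (chi-square per degree of freedom 69.0 in WT and 84.6 in STAT3-/-) and were all kept. With 2 libraries a side, an exact permutation test cannot go below a two-sided p of 0.333, and no such p is given. Intervals of count ratios and the floor of 3 counts per library cover counting error only. The edgeR fits were also run on counts simulated from their own fitted levels and spread. Such counts follow the model of the fit, so they cannot show whether the calls above are right.

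Gene lists, marker lists and named genes were chosen with earlier results of these data known. Named were Stat3, Pdcd1, Cd4 and CD8 genes, all called genes, up to 4 tested members of each list with the smallest p, up to 10 genes per direction with the largest changes called with the block, and the 5 most abundant genes. Others, such as list members near a threshold or too low to test, were chosen after their values were seen. Alternatives were DESeq2 1.42.0, other scalings, filters and sets of libraries, and the block. A few items are not reported here, and figures leave them out, while counts and medians include them.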

Additional observations from a re-analysis of the deposited data

How the results depend on the processing

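With 2 pools a side and 3 residual degrees of freedom, the number of genes called depended on the fit, while the direction of the 40 called genes was the same in each alternative that tested them (33 of the 40 where 10 counts were required in every library). DESeq2 called 271 genes (105 higher, 166 lower), the 40 among them. Without a filter beyond 1 count 165 were called (64 and 101), from all 12 libraries 164 (62 and 102), and from the 4 libraries alone 1 (1 and 0). The replicate block gave 303 (129 and 174), 2013 from the 4 libraries (955 and 1058) and 529 from all 12 (221 and 308). Leaving out 1 library gave 1 to 49 genes, 1 to 21 of them higher and 0 to 28 lower. The cause of these differences in number was not tested. In the interaction DESeq2 called 5 genes and each edgeR alternative 0. Some log2 fold changes that had not passed changed sign when 1 library was left out, and ran from -0.14 to 0.035 for Cd4, -0.63 to 1.58 for Cd8a, -0.32 to 0.070 for Cd8b1, -1.50 to 0.32 for Ifng, -1.29 to 1.57 for Il10, -0.17 to 0.31 for Il1rap, -0.70 to 0.17 for Myc and -2.43 to 1.99 for Nr4a1. Genes under about 10 counts per library, such as the Th17 cytokines in STAT3-/- libraries, have no precise fold change at this depth.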

Other observations

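The replicate number carried differences that genotype did not. Nr4a1, an immediate early gene of T cell receptor signalling, stood at 502 CPM in replicate 1 and 63.9 CPM in replicate 2 of WT, and at 455 and 52.6 CPM in replicates 1 and 2 of STAT3-/- libraries. Its difference between genotypes was -0.14 in replicates 1 and -0.28 in replicates 2 on the log2 scale. The inducible heat shock genes Hspa1a and Hspa1b, chaperones of the HSP70 family, were higher in STAT3-/- libraries of the same number. Hspa1b had 1.25 and 0.253 CPM in WT and 8.77 and 3.65 CPM in STAT3-/- libraries and rose with the block (adjusted p = 0.00885 in edgeR), and Hspa1a was counted 8 and 2 times in WT and 52 and 19 times in STAT3-/- libraries (ratio 7.43, 3.81 to 16.2 from counting error). They were the 2 of 38 tested heat shock and chaperonin genes that rose with the block, where 1.08% of all tested genes did, and the list median was 0.02. Car2, a carbonic anhydrase gene, was counted 38 and 6 times in WT and 128 and 99 times in STAT3-/- libraries and rose with the block (adjusted p = 0.0350).

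Other lists held few genes that passed with the block, where 1.08% of all tested genes rose and 1.45% fell. Of 20 Th1 genes 1 rose and 3 fell, of 12 Th2 genes 0 rose and 1 fell, and of 19 regulatory T cell genes 1 rose and 1 fell. Inhibitory receptors and exhaustion regulators (19 tested), effector transcription factors (17) and costimulatory receptors and ligands (23) each held 1 that rose and 1 that fell, and memory and lymph node homing genes (17) held 1 and 2. Of 23 TGF-β receptor and SMAD genes 2 fell, and of 25 MHC and antigen processing genes 1 rose. ERK feedback genes (26), S100, galectin and annexin genes (24), G1 cyclins and their partners (24), long noncoding RNAs (16) and the STAT family (7, Stat3 itself) each held 1 that fell. Of 10 chemokines 1 rose, Ccl5. Proteasome subunits (37), ATF4 stress genes (19) and sex-linked genes (4) held 0 in either fit. The 5 genes with the highest mean CPM over the 4 libraries were Actb, Rn45s, Eef2, Ahnak and Tmsb4x, and Actb averaged 7251 CPM in WT and 7563 CPM in STAT3-/- libraries.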
